A study of Homo sapiens with 6 samples.

Results

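HPGD and 9 further genes that make, reduce, sense or carry prostaglandins were followed in SKBR3 cells, an established human HER2-positive breast adenocarcinoma line. The members were taken by gene name from the deposited gene table, where each had a row of its own or a row shared with overlapping genes, giving 10 genes of 54644 rows. The set was chosen because HPGD was higher with CTTN, so the HPGD values below describe that choice and carry no test. Both groups were stably infected with lentivirus and selected with puromycin. The control group carried the pLVX vector and the CTTN group carried pLVX-CTTN, which encodes cortactin, a protein that binds actin filaments at the cell cortex. Each group had 3 libraries, deposited as biological replicates of poly(A) RNA from bulk cultures. Whether these came from separate infections was not given in the sources used here, so the p-values cover the spread between these libraries. No drug treatment or time course was part of the design. The question was how RNA levels along the prostaglandin pathway compared between cells with added CTTN and cells with the vector.

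Prostaglandins are short-lived lipid signals made from arachidonic acid, which phospholipases free from membranes. The cyclooxygenases PTGS1 and PTGS2 turn arachidonic acid into prostaglandin H2, from which the prostaglandin E synthases PTGES, PTGES2 and PTGES3 can make prostaglandin E2. The transporter SLCO2A1 carries prostaglandins into cells, where HPGD (15-hydroxyprostaglandin dehydrogenase) oxidizes and so inactivates them, and PTGR1 and PTGR2 reduce the oxidized products. PTGER4 is a G protein-coupled receptor for prostaglandin E2. In epithelial tumors HPGD is known as a counterweight to cyclooxygenase.

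The libraries held 34887069 to 41279830 reads assigned to genes. CTTN itself, the check of the labels, had 28060, 38014 and 17144 reads in CTTN libraries 1 to 3 and 10576, 12864 and 11759 in control libraries 1 to 3. Its log2 fold change was 1.35 (SE 0.22, n = 3 per group, edgeR quasi-likelihood adjusted p = 0.0248), and these reads do not separate the transgene from the gene on chromosome 11. CTTN libraries 2 and 3 stood apart from their group, with a root mean square log2 distance from the group mean of 0.324 and 0.336 against 0.146 to 0.164 for the other 4 libraries. They lay on opposite sides of CTTN 1 on the first principal component of the log2 levels, which held 67.4% of the variance. Its values were -23.9, 6.52 and -58.2 in CTTN 1 to 3 and 20.5, 26.8 and 28.3 in control 1 to 3. The FPKM values of CTTN 3 summed to 852256, against 603634 to 704018 in the other libraries. Of the marker lists, the 7 luminal and HER2 markers had summed levels of 6149 to 9303 FPKM (fragments per kilobase of transcript, scaled to depth) in CTTN and 6722 to 6922 in control, all 7 above 1 FPKM. The fibroblast markers summed to 2.94 to 4.30 FPKM in CTTN and 3.51 to 4.44 in control, with 4 of 5 under 1 FPKM. The immune markers summed to 619 to 856 against 606 to 632 FPKM, nearly all of it from CD68, with the other 4 of 5 under 1 FPKM. The endothelial markers summed to 1.55 to 2.19 FPKM in CTTN and 4.20 to 4.65 in control, where 3 of 4 were under 1 FPKM and CDH5 made up nearly all. The part of these markers in the results was not tested.

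The HPGD locus spans chr4:174490176-174523154 in GRCh38, the build named in the submitters' processing notes. Because the HPGD and PTGS1 RNA levels lay on opposite sides of control, the sequences before their RefSeq start sites (GRCh38.p14) are shown here in lower case. Capitals mark letters of the searched motifs on either strand. One 250-base HPGD window (chr4:174522489-174522738, minus strand, 70.8% GC) lies whole within the annotated transcripts HPGD-213 and HPGD-214, and the other (chr4:174522894-174523143, 42.0% GC) shares bases with HPGD-205 and HPGD-209. For HPGD the 30 bases around each match are therefore given, and for PTGS1, whose windows share no stretch of 20 bases or more with an annotated PTGS1 transcript, each window is given whole.
HPGD first window, E-box 246 bases before the start (chr4:174522709-174522738): ctgtCAGCTGcctgccaatcacggagccag
HPGD first window, E-box 138 bases before the start (chr4:174522609-174522638): acgctcagggggCAGGTGacacagtcgtgg
HPGD first window, Sp1 match on the other strand 85 bases before the start (chr4:174522556-174522585): acagtttcctccCCGCCCactggcagggga
HPGD second window, E-box 250 bases before the start (chr4:174523114-174523143): CAATTGacactgaccagaaacacagcgcca
PTGS1 first window (chr9:122370283-122370532, plus strand, 49.6% GC): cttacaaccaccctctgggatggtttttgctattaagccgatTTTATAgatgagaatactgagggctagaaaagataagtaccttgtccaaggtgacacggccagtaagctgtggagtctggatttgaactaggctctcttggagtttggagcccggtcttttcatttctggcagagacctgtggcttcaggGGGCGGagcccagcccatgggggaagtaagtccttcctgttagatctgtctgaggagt
PTGS1 second window (chr9:122375052-122375301, plus strand, 65.2% GC): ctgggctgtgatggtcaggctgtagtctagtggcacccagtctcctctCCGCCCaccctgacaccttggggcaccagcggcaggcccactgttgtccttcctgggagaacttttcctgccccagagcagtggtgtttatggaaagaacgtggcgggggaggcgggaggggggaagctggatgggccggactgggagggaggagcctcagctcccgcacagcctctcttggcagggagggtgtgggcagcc

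The PTGS1 windows hold a TATA match (TATAAA) on the other strand and Sp1 matches (GGGCGG), and the HPGD windows hold E-box (CANNTG) and Sp1 matches. These are common letters: of 35116 RefSeq windows of 250 bases, 61.8% held an E-box match, 42.6% an Sp1 match and 10.7% a TATA match. Of the 14 windows found for 9 members, some of which overlap, 5 held an E-box match, 11 an Sp1 match and 2 a TATA match. The TCF/LEF letters CTTTGAA were in 3.8% of all windows and in 1 of the 14, that of PTGES. The TCF/LEF letters CTTTGTA (2.35% of all windows) and the AP-1 letters TGANTCA (6.57%) were in none of the 14, and the CRE core TGACGT (7.1%) was in both PTGR2 windows, which overlap. A match of letters is a description of the window and does not show that a factor binds there.

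HPGD was low in vector control cells and higher in each CTTN library. Its reads were 76, 101 and 88 in CTTN libraries 1 to 3 and 10, 35 and 34 in control libraries 1 to 3. Scaled by library size, these were 2.15, 2.68 and 2.67 CPM (counts scaled to a fixed library size) in CTTN and 0.283, 0.834 and 0.885 CPM in control. The groups did not overlap, and the lowest value was that of control 1. The means were 2.50 ± 0.306 CPM (SD, n = 3) in CTTN and 0.667 ± 0.334 CPM (SD, n = 3) in control, a ratio of 3.75 and a log2 fold change of 1.88 (SE 0.35). Without control 1 the log2 fold change was 1.53, and without control 3 it was 2.12, the highest of the 6 values with a library left out. On log2(FPKM + 1), which shrinks low genes, the difference was 0.86. In these bulk cultures, fewer cells expressing a gene and less RNA per cell cannot be told apart. CTTN itself was lowest in CTTN 3 (520 CPM) and highest in CTTN 2 (1011 CPM), where HPGD stood at 2.67 and 2.68 CPM. With 76 to 101 HPGD reads per CTTN library, a relation between the HPGD and CTTN levels was not tested.

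**Figure D1:**
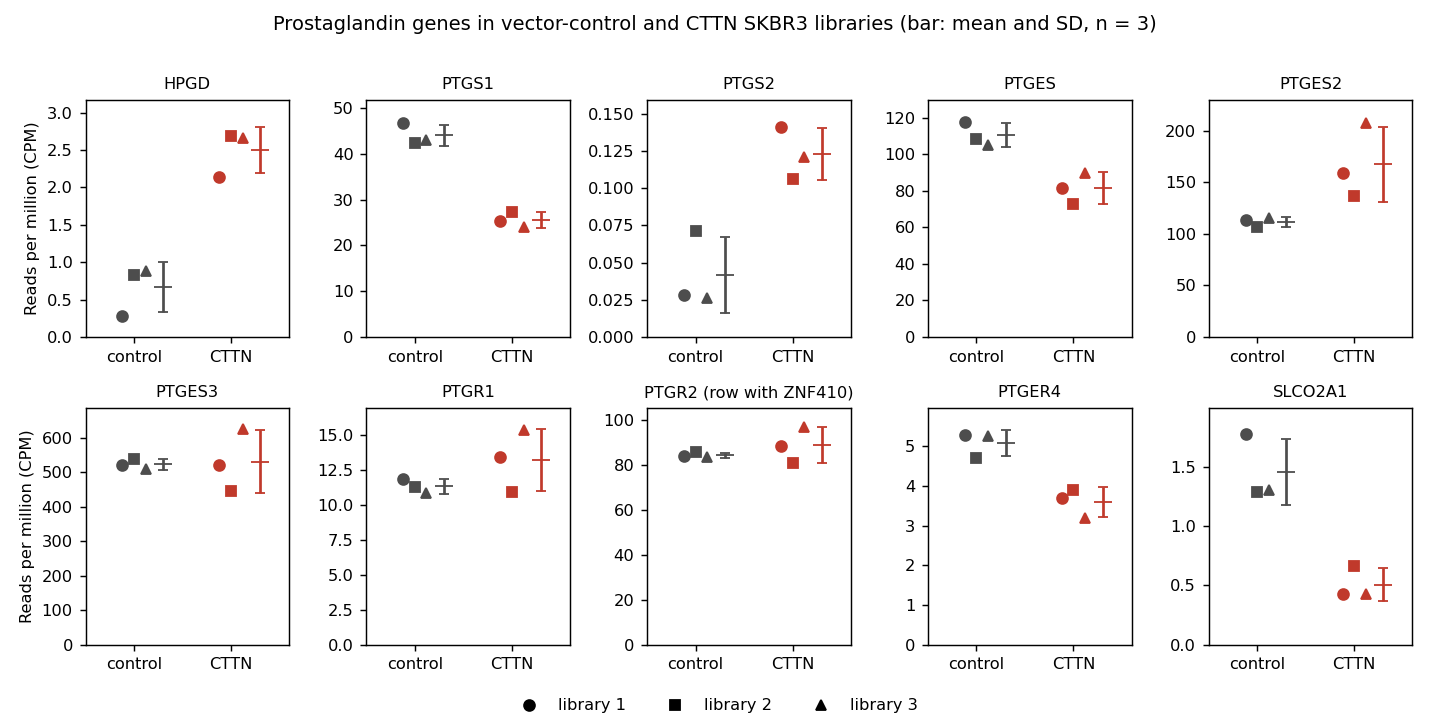
CPM (scaled counts, axes from 0) of the 10 prostaglandin genes in 3 control and 3 CTTN libraries; each symbol is 1 library and the bar is the mean with its SD. HPGD is above 2.1 CPM in all CTTN libraries and under 0.9 CPM in all controls, and PTGS1 and SLCO2A1 lie lower in every CTTN library than in any control.

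Measured per transcript length, HPGD stood low among the 10 members in both groups. PTGR2 is left out of the order here, since its row is shared. In control cells PTGES3 led at 345 ± 3.09 FPKM (SD, n = 3), followed by PTGES2 at 71.9 ± 1.21 and PTGES at 71.6 ± 3.63 FPKM, whose ranges overlapped. PTGS1 at 11 ± 0.489 and PTGR1 at 10.2 ± 0.451 FPKM came next, and the gap between their ranges was smaller than either SD. PTGER4 had 1.79 ± 0.307 FPKM, and HPGD (0.487 ± 0.292) overlapped with SLCO2A1 (0.376 ± 0.0768). PTGS2 came last at 0.0147 ± 0.0061 FPKM. In CTTN cells PTGES3 again led at 332 ± 27.1 FPKM, PTGES2 (115 ± 35.8) lay above PTGES (51.9 ± 5.39 FPKM) without overlap, and PTGR1 (11.7 ± 1.18) lay above PTGS1 (6.50 ± 0.860 FPKM). HPGD reached 1.66 ± 0.119 FPKM, overlapping with PTGER4 at 1.26 ± 0.260, while SLCO2A1 was at 0.206 ± 0.0495 and PTGS2 at 0.106 ± 0.0533 FPKM.

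Of the members other than HPGD, 8 passed the filter on low counts and PTGS2 did not. By edgeR, PTGS1 and SLCO2A1 fell in CTTN cells, none rose, and 6 did not pass the test. DESeq2 called 1 higher and 4 lower, where it called 959 higher and 908 lower of 13813 rows tested. Without the filter on low counts, edgeR called 1 higher and 3 lower, where it called 539 and 437 of 25834 rows. In the main edgeR test, over all 14409 rows tested, 2.03% were called lower, 2.43% higher and 4.46% in either direction at an adjusted p under 0.05. The CPM ranges of the groups did not overlap for 5 of the 8 members, against 38.8% of all rows tested. The median log2 fold change of the 8 was -0.21, and that of all rows tested was 0.01. The members were picked with results of these data known, so these counts describe the set.

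PTGS1 (cyclooxygenase 1, chr9:122370529-122395703), the enzyme that opens the pathway from arachidonic acid, had 898, 1030 and 792 reads in CTTN and 1655, 1782 and 1654 in control. All CTTN libraries were below all controls, at 25.4, 27.4 and 24.0 CPM against 46.8, 42.4 and 43.1 CPM. PTGS1 fell by 0.78 on the log2 scale (SE 0.09, edgeR adjusted p = 0.00843), with control 1.72 times the CTTN mean. The call was kept without CTTN 2 (adjusted p = 0.000789) or CTTN 3 (0.0021), and lost without CTTN 1 (0.0803), control 1 (0.0674), control 2 (0.0765) or control 3 (0.0738), with log2 fold changes of -0.84 to -0.74. It was also lost with limma on log2(FPKM + 1) (-0.68, adjusted p = 0.0631).

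PTGS2 (cyclooxygenase 2, chr1:186671790-186680427), the inducible form, was barely detected. It had 5, 4 and 4 reads in CTTN and 1, 3 and 1 in control, too few to pass the filter. Summed over libraries, 13 reads stood against 5, a depth-adjusted ratio of 2.75 with an exact 95% interval of 0.921 to 9.86 that covers counting error only. The CPM ranges did not overlap, at 0.106 to 0.141 in CTTN and 0.026 to 0.0715 in control, but they rest on 1 to 5 reads per library. As the interval includes 1, a difference was not shown at this depth.

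Of the 3 prostaglandin E synthases, PTGES was estimated lower, PTGES2 higher and PTGES3 near 0. None was called by the main edgeR test on all 6 libraries, with TMM scaling and the filter on low counts. PTGES (chr9:129738330-129753047), the membrane-bound inducible enzyme, had 81.6, 72.5 and 89.9 CPM in CTTN and 118, 108 and 105 CPM in control. The groups did not overlap, and the log2 fold change of -0.44 (SE 0.10) had an adjusted p of 0.06 by edgeR. PTGES2 (chr9:128120692-128128462), a second membrane-associated synthase, had 159, 136 and 207 CPM in CTTN and 113, 106 and 116 CPM in control, again without overlap. Its log2 fold change was 0.58 (SE 0.15, edgeR adjusted p = 0.0752), and CTTN 3 was the high library. PTGES3 (chr12:56663340-56688408), the cytosolic synthase also known as the HSP90 co-chaperone p23, had 521, 445 and 627 CPM against 522, 539 and 509 CPM. Its groups overlapped, and the log2 fold change of 0.02 (SE 0.13, edgeR adjusted p = 0.915) turned to -0.03 without TMM scaling. PTGES and PTGES2 were called by DESeq2 (adjusted p = 0.0038 and 0.0114) and by edgeR without the filter on low counts (0.0417 and 0.0358), without CTTN 2 (0.0089 and 0.0026) or without CTTN 3 (0.0104 and 0.0265). PTGES was also called without TMM scaling (0.0317).

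The reductases downstream of HPGD were not called in the test on all 6 libraries. PTGR1 (chr9:111525158-111599855) had 475, 411 and 507 reads in CTTN and 419, 474 and 416 in control. The ranges overlapped and the log2 fold change was 0.22 (SE 0.14, edgeR adjusted p = 0.271). Without CTTN 2 it was 0.34 and was called (0.0249), and without CTTN 3 it was 0.10 (0.577). PTGR2 shares its row (chr14:73851843-74084493) with ZNF410 and AC005520.1, and that row had a log2 fold change of 0.07 (SE 0.09, edgeR adjusted p = 0.571), which turned to -0.010 on log2(FPKM + 1). The isoforms assigned to PTGR2 made up 3.52, 4.86 and 3.28 FPKM in CTTN and 4.14, 4.02 and 4.27 FPKM in control, whereas ZNF410 held 30.4 ± 1.41 FPKM (SD, n = 3) of the row in CTTN and 30.8 ± 0.270 FPKM in control. The row therefore measures mostly ZNF410.

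SLCO2A1 (chr3:133932695-134052184), the prostaglandin importer that works ahead of HPGD, fell in CTTN cells. It had 15, 25 and 14 reads in CTTN and 63, 54 and 50 in control, or 0.424, 0.665 and 0.424 CPM against 1.78, 1.29 and 1.30 CPM. No libraries overlapped. The log2 fold change was -1.51 (SE 0.27, edgeR adjusted p = 0.0305), with control 2.89 times the CTTN mean. The call was lost without CTTN 1 (0.155), control 1 (0.137), control 2 (0.126) or control 3 (0.125), and kept without CTTN 2 (0.00283) or CTTN 3 (0.0249). With limma on log2(FPKM + 1) the difference was -0.19 (adjusted p = 0.245), a scale that shrinks genes this low.

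PTGER4 (chr5:40512332-40755975), the receptor that couples prostaglandin E2 to cyclic AMP, had 131, 147 and 105 reads in CTTN and 187, 197 and 202 in control. The ranges did not overlap, and the log2 fold change of -0.50 (SE 0.13) did not pass the test (edgeR adjusted p = 0.0768), although it did by DESeq2 (0.0422) and without CTTN 2 (0.0112). The locus in the files is longer than that of RefSeq (chr5:40679915-40746800).

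The rest of the pathway was read from 5 lists of 50 genes in 49 rows, of which 30 passed the filter. Of these 30, by edgeR, 5 rose, 1 fell and 24 were not called, and their median log2 fold change was 0.12. Over all rows tested, 2.43% were called higher and 2.03% lower, with a median of 0.01. A further 5 rows, among them HPGDS (the hematopoietic prostaglandin D synthase) and PTGDR (a prostaglandin D2 receptor), had 0 reads in all 6 libraries. Each of the 6 calls was kept by edgeR without CTTN 2 or CTTN 3 and lost without CTTN 1 or any 1 control. The counts were 8 higher and 2 lower by DESeq2, which called 959 higher and 908 lower of 13813 rows tested. By edgeR without CTTN 2 they were 10 and 4, where 3366 and 3559 of 14692 rows were called. Limma on log2(FPKM + 1) gave 0 and 0, where 54 and 40 of 17021 rows were called. The lists were chosen with earlier results of these data known, so these counts describe the lists.

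**Figure D2:**
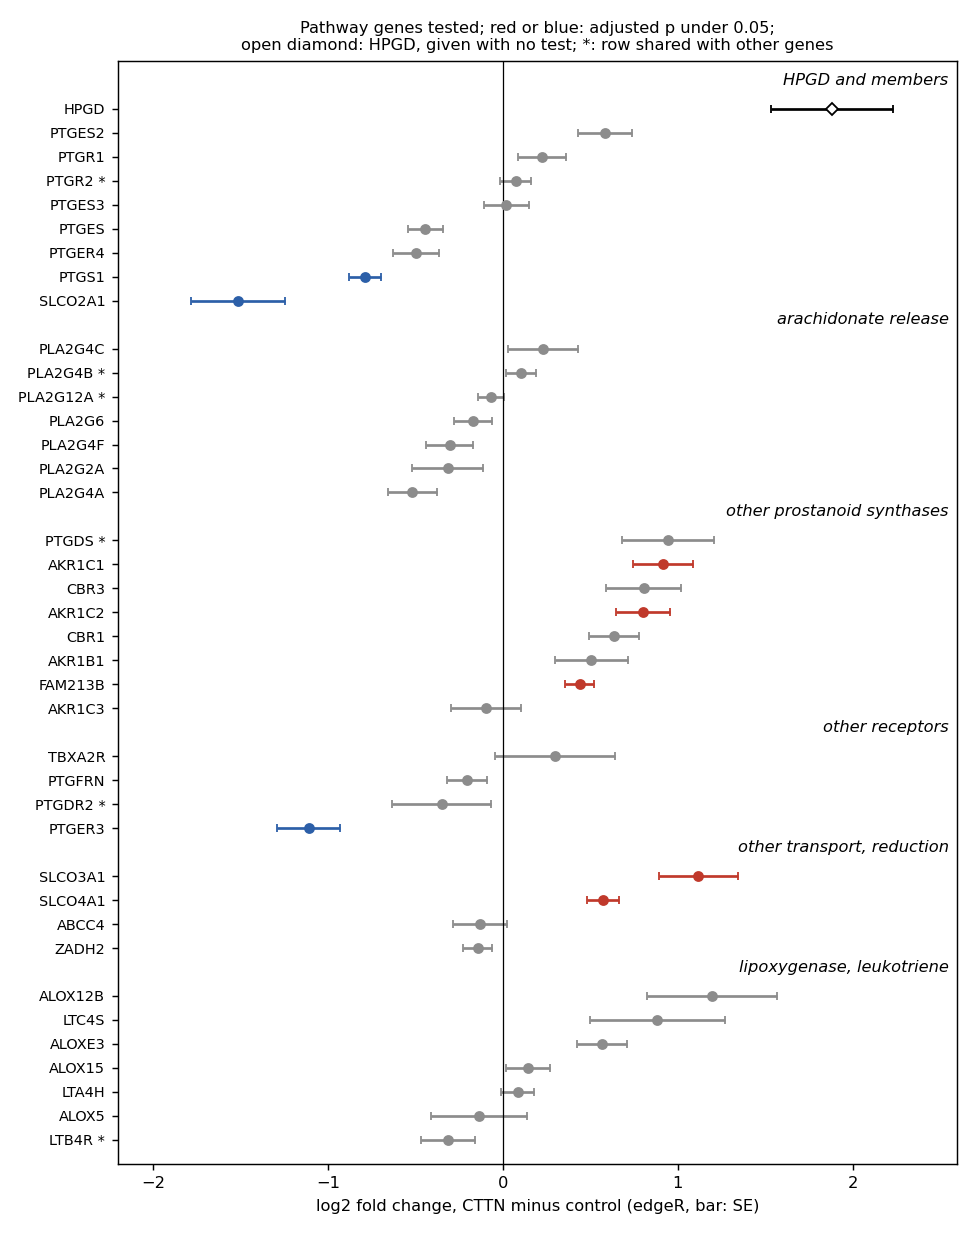
Log2 fold change (CTTN minus control, edgeR) of each tested pathway gene, with its SE as a bar, grouped by step; red marks genes called higher, blue genes called lower, an asterisk a row shared with other genes, and the open diamond HPGD, which has no test. PTGS1, SLCO2A1 and PTGER3 are the blue points. The red points are AKR1C1, AKR1C2 and FAM213B of the synthase list and SLCO3A1 and SLCO4A1 of the transport list.

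Arachidonate release had no call by edgeR on all 6 libraries among 7 tested of 12 phospholipase A2 genes, with a median log2 fold change of -0.17. PLA2G4A, the calcium-dependent cytosolic phospholipase A2, had the lowest estimate in the list, 246, 273 and 176 reads in CTTN against 354, 373 and 350 in control (log2 fold change -0.52, SE 0.14, edgeR adjusted p = 0.0798). It was called lower by DESeq2 (adjusted p = 0.0266) and by edgeR without CTTN 2 (0.00746). PLA2G6, the calcium-independent enzyme, had -0.17 (SE 0.11), PLA2G2A -0.31 (SE 0.20), PLA2G4F -0.30 (SE 0.13) and PLA2G4C 0.23 (SE 0.20) on the log2 scale. The rows of PLA2G4B (0.10, SE 0.08) and PLA2G12A (-0.07, SE 0.08) are shared with JMJD7 and with CFI, respectively. On log2(FPKM + 1) the signs of PLA2G4F (0.057) and PLA2G12A (0.22) turned.

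In the list of other prostanoid synthases, 3 of 8 tested genes rose and none fell, and the median log2 fold change was 0.72. Over all rows tested, 2.43% were called higher and the median was 0.01. The list was chosen with earlier results of these data known, so this count describes the list. AKR1C1 had 30.9, 24.9 and 37.6 CPM in CTTN and 17.9, 17.5 and 14.0 CPM in control (log2 fold change 0.92, SE 0.17, edgeR adjusted p = 0.0351). AKR1C2 had 111, 94.7 and 141 CPM against 70.6, 67.9 and 59.8 CPM (0.80, SE 0.15, edgeR adjusted p = 0.0375). These aldo-keto reductases are best known for reducing steroids. As they are near-identical paralogs, the division of reads between them is uncertain, and their calls may not be independent. AKR1C3, the prostaglandin F synthase of the family, had 7.88, 5.85 and 10.3 CPM against 9.27, 8.27 and 8.12 CPM, with overlapping groups (-0.10, SE 0.20, edgeR adjusted p = 0.746, and 0.081 without CTTN 2). FAM213B, a peroxiredoxin-like prostaglandin F synthase, had 141, 134 and 152 CPM against 102, 104 and 109 CPM and rose by 0.44 on the log2 scale (SE 0.08, edgeR adjusted p = 0.0339). The carbonyl reductases CBR1 (0.64, SE 0.14, adjusted p = 0.0546) and CBR3 (0.81, SE 0.21, adjusted p = 0.0777) did not pass the test by edgeR, although no CTTN library was as low as any control. Both were called by DESeq2 (adjusted p = 0.00239 and 0.0073) and by edgeR without the filter on low counts (0.0184 and 0.0273), without CTTN 2 (0.00152 and 0.00232) or without CTTN 3 (0.0158 and 0.0262), and CBR1 also without TMM scaling (0.0429). CBR1, which can reduce prostaglandin E2, stood at 182 ± 38.9 FPKM (SD, n = 3) in CTTN and 116 ± 3.36 FPKM in control. PTGDS, the lipocalin-type prostaglandin D synthase, shares its row with LCNL1 and had 0.94 (SE 0.26, adjusted p = 0.0862 by edgeR), and was called by DESeq2 (0.0264) and without CTTN 2 (0.00575). AKR1B1, an aldose reductase that can form prostaglandin F2alpha, had 0.51 (SE 0.21, adjusted p = 0.157). Without CTTN 1 or any 1 control, the adjusted p of AKR1C1 was 0.137 to 0.168, that of AKR1C2 0.147 to 0.182 and that of FAM213B 0.153 to 0.2.

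Of the other prostanoid receptors, 4 of 9 were tested and PTGER3 fell, where 2.03% of all rows tested were called lower. PTGER3, a prostaglandin E2 receptor that lowers cyclic AMP in many cells, had 49, 65 and 51 reads in CTTN and 103, 132 and 154 in control, without overlap (log2 fold change -1.11, SE 0.18, edgeR adjusted p = 0.0248). Without CTTN 1 or any 1 control its adjusted p was 0.0856 to 0.136, and limma on log2(FPKM + 1) gave -0.38 (0.176). Its level was low in both groups, 0.395 ± 0.0457 FPKM in CTTN and 0.820 ± 0.232 FPKM in control (SD, n = 3). PTGFRN, a membrane protein that associates with prostaglandin F2alpha receptors, had -0.20 (SE 0.11, edgeR adjusted p = 0.245), which turned to 0.31 on log2(FPKM + 1) and was called lower without CTTN 2 (-0.33, adjusted p = 0.0128). PTGER1 and PTGER2, the remaining E2 receptors, had at most 5 reads in any library and were not tested.

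The transport and reduction list had 2 genes higher of 4 tested, against 2.43% of all rows tested. SLCO3A1, an organic anion transporter that takes prostaglandin E as a substrate, had 100, 138 and 110 reads in CTTN and 46, 84 and 46 in control (log2 fold change 1.12, SE 0.23, edgeR adjusted p = 0.0452). SLCO4A1, from the same transporter family as SLCO2A1, had 35.7, 37 and 34.2 CPM against 22.0, 24.2 and 25.6 CPM (0.58, SE 0.09, edgeR adjusted p = 0.0223). Both rose, whereas SLCO2A1 fell, and for each of the 3 the CTTN and control libraries did not overlap. Without CTTN 1 or any 1 control, the adjusted p was 0.0835 to 0.192 for SLCO3A1 and 0.109 to 0.157 for SLCO4A1. SLCO3A1 also lost its call without TMM scaling (0.0561). Limma on log2(FPKM + 1) called neither, at 0.50 (0.134) for SLCO3A1 and 0.74 (0.0598) for SLCO4A1. The exporter ABCC4 had -0.13 (SE 0.15), which turned to 0.0035 on log2(FPKM + 1), and ZADH2, a reductase related to PTGR1 and PTGR2, had -0.14 (SE 0.08) on the log2 scale, and neither was called.

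The parallel lipoxygenase and leukotriene branch had no call by the main edgeR test on all 6 libraries among 7 tested rows of 12. LTA4H, which makes leukotriene B4, had 0.09 (SE 0.10, edgeR adjusted p = 0.545), ALOX15 had 0.14 (SE 0.13), LTC4S had 0.88 (SE 0.39, edgeR adjusted p = 0.172), and the row shared by LTB4R, LTB4R2 and NOP9 had -0.31 (SE 0.15). LTC4S had 74, 32 and 78 reads in CTTN and 31, 34 and 45 in control, so CTTN 2 lay among the controls. Without CTTN 2, LTC4S (1.22, edgeR adjusted p = 0.00395) and the LTB4R row (-0.50, edgeR adjusted p = 0.00379) were called. That fit called 3366 higher and 3559 lower of 14692 rows tested.

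The files listed 22 HPGD isoforms in 6 start-site groups, 16 of them matched to an annotated transcript and 6 assembled variants, and many had estimates of practically 0. The annotated names nearest to the leading forms were HPGD-211, a retained-intron transcript with 25.9% of the gene's FPKM, HPGD-202, a coding transcript with 23.3% from its match and 13.3% from an assembled variant in another start-site group, and HPGD-208, a nonsense-mediated decay transcript with 18.5%. The order turned by estimated fragments, where the HPGD-202 match held 39.3%, its assembled variant 21.9%, HPGD-208 16.0% and the short HPGD-211 8.9%. The third group by position held 63.7% of the FPKM in CTTN and 51.9% in control, and by library 74.6%, 58.7% and 57.5% in CTTN against 11.7%, 70.6% and 38.2% in control. The ranges of the groups overlapped. By estimated fragments, which do not weight short isoforms up, the same group held 39.5% and 28.6%. The first group had 3.49, 40.3 and 63.8 fragments in CTTN and 5.81, 2.62 and 21.0 in control. By FPKM the third group led in all 3 CTTN libraries and in control 2, whereas by estimated fragments no group led in all libraries of a condition. With 10 to 101 reads per library the split is an estimate from few reads. No test was run on these shares, since they belong to the contrast that chose HPGD.

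SLCO2A1 was divided among 4 start-site groups. The third group, led by an assembled variant whose nearest annotated transcript is SLCO2A1-201, held 70.3% of the FPKM in control and 18.5% in CTTN, at 43.5, 26.1 and 47.4 estimated fragments in control. In CTTN it had 16.8 fragments in CTTN 2 and was near 0 in CTTN 1 and CTTN 3. The fourth group, made of shorter transcripts, held 52.9% of the FPKM in CTTN and 0.88% in control, from 5.64, 7.52 and 2.76 fragments against at most 0.53 in any control. By fragments its CTTN share was 28.7%, below the 30.3% of the third group. No group led in all CTTN libraries, since by FPKM the first group led in CTTN 3 with 59.5%. PTGS1, with far more reads, kept 94.9% of its FPKM in its second start-site group in CTTN and 90.2% in control, at 95.9% in CTTN 1, 90.2% in CTTN 2 and nearly all of it in CTTN 3, against 89.5%, 93.2% and 88.3% in control 1 to 3. Within that group, forms of 5039 and 5020 bases, both matched to the same annotated transcript, exchanged most of the estimate between libraries. The longer one had 1.8, 308 and 2.1 fragments in CTTN and 1026, 906 and 381 in control, so the split between these forms is an estimate only. PTGES-201 held 98.5% of the PTGES FPKM and PTGES3-201 90.6% of that of PTGES3.

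The genes next to HPGD on chromosome 4 were not called. By the coordinates in the files, the 3 nearest before it with a mean of at least 0.1 FPKM were CEP44 and FBXO8, which the files place at the same locus 156796 bases away, and SAP30, 1112644 bases away. Their log2 fold changes were -0.23 (SE 0.16), 0.06 (SE 0.11) and 0.44 (SE 0.19), with edgeR adjusted p-values of 0.319, 0.703 and 0.170. After it came WDR17 (1542679 bases), SPCS3 (1785113 bases) and VEGFC (2146466 bases), at -0.82 (SE 0.29), -0.20 (SE 0.07) and -0.50 (SE 0.14), with adjusted p-values of 0.128, 0.127 and 0.0880. VEGFC, a growth factor of lymphatic vessels, had 3.05, 2.76 and 2.64 CPM in CTTN and 4.27, 3.48 and 4.24 CPM in control. The groups did not overlap for WDR17, SPCS3 and VEGFC, against 38.8% of all rows tested without overlap, and all 3 estimates were opposite in sign to that of HPGD.

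Among 11899 genes with a mean of at least 1 FPKM, the 5 with the smallest root mean square distance from HPGD in centred log2(FPKM + 1) over the 6 libraries were TMEM132D-AS1 (0.134), RCAN1 (0.147), TGM1 (0.151), CCNA1 (0.165) and HPN (0.174). RCAN1, a calcineurin regulator, had 62.4, 61.5 and 60.9 FPKM in CTTN and 34.7, 37.9 and 36.1 in control. TGM1, the transglutaminase of the cornified envelope, had 19.2, 19.1 and 20.3 against 10.8, 12.8 and 12.1 FPKM, and CCNA1, a cyclin of the germ line, had 2.78, 2.63 and 2.76 against 0.893, 0.957 and 1.06 FPKM. HPN, a membrane serine protease, had 1.5, 1.84 and 2.02 against 0.490, 0.636 and 0.413 FPKM. TMEM132D-AS1 is an antisense transcript, and its 2.78, 2.09 and 1.95 FPKM in CTTN stood against 0.703, 1.16 and 0.849 in control. With 6 libraries in 2 groups, the likeness is mostly the step between groups that HPGD was chosen for.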

How the data were processed

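Poly(A) RNA of 3 CTTN and 3 control SKBR3 cultures was sequenced with a stranded kit. The submitters' processing notes name bcl2fastq 2.20.0, Trimmomatic, STAR, Cufflinks and GRCh38, whereas the study's methods name another trimmer and an older build. The member loci overlap those of RefSeq GRCh38.p14 on the same chromosomes. The authors deposited FPKM tables and count tables for genes, isoforms and start-site groups, made with Cuffnorm and scaled between libraries, so the deposited gene counts are a scaled signal. The lowest step of each deposited gene column gave what 1 read was worth, and 100% of the values were whole multiples of it (relative tolerance 2e-05). The test planned for deposited counts was therefore run on these recovered reads, and the rounded deposited values became an alternative chosen after seeing the data.

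Control columns were mapped by the run names in the deposited sample table, which number controls 1 to 3. The sample descriptions name 2 of these 3 columns and 1 column that is in no table used here, so the fit without control 1 uses only control columns that both sources name. The coding-sequence tables were not used.

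The members and gene lists were chosen with earlier results of these data known. The main test was edgeR 4.0.16 (quasi-likelihood, TMM, filterByExpr, R 4.3.3), with Benjamini-Hochberg adjusted p under 0.05 over 14409 rows. SE was the log2 fold change divided by the root of the F statistic, and CPM used TMM library sizes. With 3 libraries against 3, a two-sided exact permutation test cannot give a p under 0.1, so none is printed. Named genes were all members, pathway genes called or with a mean of at least 1 FPKM, 3 neighbors on each side of HPGD, 5 nearest patterns and CTTN. Alternatives were DESeq2 1.42.0, no TMM, no filter, limma 3.58.1 on log2(FPKM + 1) or log2(FPKM + 0.1), a replicate block, a minimum of 1.5-fold and leaving out each library. Transcript names came from GENCODE and promoter sequences from RefSeq, where 9 of the 10 members matched. Depth was 34887069 to 41279830 reads, and intervals cover counting error only. Whether strand was used in counting was not given in the sources used here, so overlapping genes may share reads.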

Additional observations from a re-analysis of the deposited data

How the results depend on the processing

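The main test called 350 genes higher and 293 lower. DESeq2 called 959 and 908, edgeR with no filter 539 and 437, limma 54 and 40 on log2(FPKM + 1), 70 and 45 on log2(FPKM + 0.1) and 7 and 6 on log2(FPKM + 1) without a filter. Leaving out 1 library gave 10 to 3366 higher and 5 to 3559 lower, lowest without control 2 and highest without CTTN 2. For members other than HPGD, the main 0 higher and 2 lower became 1 and 4 with DESeq2, 1 and 3 with no filter, 3 lower without TMM, 0 lower with each limma setting, and 0 to 2 higher and 0 to 4 lower with 1 library left out. The pathway lists, 5 higher and 1 lower, gave 8 and 2 with DESeq2, 7 and 1 with no filter, 0 and 0 with each limma setting, 3 higher at a minimum of 1.5-fold, and 0 to 10 and 0 to 4 with 1 library left out. PTGS1 and SLCO2A1 passed in 6 of 14 alternatives each and kept their sign in all 14. The HPGD log2 fold change moved from 1.88 to 0.86 on log2(FPKM + 1), with or without a filter, where the pseudocount shrinks low genes, and ran from 1.53 to 2.12 with 1 library left out. By fragments, the leading start-site group went from 63.7% to 39.5% for HPGD in CTTN and from 90.2% to 93.5% for PTGS1 in control. The signs of some uncalled genes turned: PTGES3 was -0.032 without TMM, -0.059 with each limma setting and -0.11 to 0.13 with 1 library left out, PTGR2 was -0.010, PLA2G4F 0.057, 0.086 and 0.057, PLA2G12A 0.22 in each, PTGFRN 0.31, 0.32 and 0.31 and ABCC4 0.0035 with limma, AKR1C3 ran from -0.32 to 0.081 and ABCC4 from -0.30 to 0.025 with 1 library left out. The causes were not tested.

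Deviations from the group means correlated at r = 0.023, 0.080 and -0.191 between same-numbered CTTN and control libraries 1 to 3. The control numbers follow the run names, and the sample descriptions number the control columns differently. These values therefore cannot show whether libraries were paired. CTTN 2 correlated best with control 3 (r = 0.204) and CTTN 3 with control 1 (0.242). A replicate block gave 51 higher and 54 lower genes, 0 members lower and 0 pathway genes higher or lower, with fewer residual degrees of freedom.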
